A study of Mus musculus with 27 samples.

Results

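The 75 genes described here encode proteins of the spliceosome, heterogeneous nuclear ribonucleoproteins (hnRNPs) and further Lsm proteins, not all of them known as parts of the spliceosome. They are the entries of the deposited gene table whose symbol begins with Hnrnp, Snrp, or Sf3a, Sf3b, Prpf, Snrnp, Lsm or U2af followed by a digit, without Prpf39 and Snrnp70, out of 59489 entries, of which 23508 carry a symbol. All 75 passed the filter on low values in both experiments. By role, 20 are hnRNPs, 14 belong to the U2 small nuclear ribonucleoprotein (snRNP) and its partner U2AF, 8 to the Sm ring, 8 to the U4/U6.U5 tri-snRNP, 7 to the U6 Lsm ring, 4 to U1 or its associated factors and 3 to the minor spliceosome. The other members are 6 further Lsm genes and 5 further Prp factors. In 4 entries a member shares its row with a neighbouring gene or a pseudogene (Hnrnpa1 with Gm10052, Hnrnpa3 with Gm6793, U2af1l4 with Igflr1, and Snrpn with Snurf and Ipw), so their values cannot be assigned to the member alone.

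Polyadenylated RNA was sequenced from wild-type mouse primary cortical cells taken at embryonic day 16.5 and cultured for 14 days, in 27 libraries forming 9 groups of 3. Transcription was blocked in every group, so no group shows cells with transcription running. In the first experiment the cells received DRB, an inhibitor of transcription elongation (50 µM, 2 h), and were left unstimulated, given bicuculline (20 µM, 1 h) or given the neurotrophin BDNF (50 ng/mL, 1 h). In the second they received triptolide, which blocks initiation (1 µM, 3 h), alone or with bicuculline (20 µM, 1 h), and RNA came from whole cells, nuclei or cytosol. Bicuculline blocks GABA-A receptors and thereby raises network activity. The study's title and design text concern intron retention after each cue, whereas the deposited values are gene levels, so a spliced and an intron-containing transcript of a member are counted together.

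The spliceosome is built anew on each intron. U1 binds the 5′ splice site, U2AF and U2 mark the 3′ splice site and branch point, and the U4/U6.U5 tri-snRNP then joins and is rearranged into the catalytic form. Sm proteins form a ring around most snRNAs and an Lsm ring sits on U6, while hnRNPs coat the transcript and bias which sites are used, among other tasks in export, stability and transport of neuronal mRNAs. Several of these genes are known to control their own output through introns or exons that keep a transcript in the nucleus or expose it to decay.

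Depth was estimated per library from the commonest low value of FPKM (fragments scaled to transcript length and library size) times gene span over short entries. That value was taken as 1 fragment on a single-exon gene model. The estimates were 83409247 to 147943680 fragments for the 9 DRB libraries and 67580067 to 89442316 for the 18 triptolide libraries. By these estimates, 10 fragments on a 2 kb transcript correspond to at most 0.074 FPKM. The cultures held neurons and glia. All 6 excitatory and all 3 inhibitory neuron markers and all 6 astrocyte markers reached 1 FPKM in both experiments, whereas microglial markers reached 1 FPKM for 0 of 5 genes under DRB and 1 of 5 under triptolide. Libraries with the same replicate number deviated together in both experiments, and under DRB the libraries of replicate number 2 stood apart from the others on the leading principal component. In such bulk samples, fewer cells of a type and less RNA per cell cannot be told apart.

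The members were abundant mRNAs that spanned more than 2 orders of magnitude. Together they made up 0.942 to 0.994% of all FPKM in the DRB libraries and 0.673 to 0.79% in the triptolide libraries. The highest level belonged to the entry of Snrpn, which encodes the Sm protein SmN of neurons and lies in an imprinted locus (the merged entry spans chr7:59272737-60450177 in mm10). It held 757, 743 and 728 FPKM in the unstimulated DRB libraries and 588, 566 and 512 in the unstimulated whole cells under triptolide. Hnrnpa2b1, a reader of exported and transported mRNAs, came next with means of 373 FPKM under DRB and 325 under triptolide, followed in both experiments by Hnrnpu (171 and 152), Hnrnpc (146 and 107) and Hnrnph1 (134 and 104). Within this order the Hnrnpc and Hnrnph1 libraries under triptolide overlapped, at 106, 105 and 109 against 104, 111 and 97.2 FPKM. The lowest level in both experiments was that of Hnrnph2, at 1.71 and 1.87 FPKM. By role, the median mean level under triptolide in whole cells was 47.4 FPKM for hnRNPs, 26.8 for the Sm ring, 16.9 for U2 and U2AF, 13.2 for the tri-snRNP, 8.97 for the U6 Lsm ring and 4.9 for the 3 minor spliceosome genes.

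Between nucleus and cytosol more members were higher in the cytosol than in the nucleus, by moderate amounts, while 4 members were more than 2-fold higher in the nucleus. In unstimulated cells under triptolide, 12 of 75 were higher in the nucleus and 37 were higher in the cytosol (limma on log2(FPKM + 0.5), Benjamini-Hochberg adjusted p under 0.05 over all 14205 tested genes). Among all tested genes, 39% were higher and 28% lower in the nucleus, against 16% and 49.3% of the members. The median log2 difference of the members, nucleus minus cytosol, was -0.21 and that of all tested genes 0.06. The 95th percentile of all tested genes was 1.68, and of the members only Prpf4b lay above it. Nuclear differences of the size seen in the 4 members were therefore not particular to them. FPKM are shares of each library and not amounts per cell, so each difference is relative to the rest of that fraction's RNA. With median-ratio scaling the median of all genes moved to -0.25, that of the members to -0.53, and the members split into 7 higher and 62 lower, where 26.6% and 50.2% of all genes did so. With quantile normalization the split was 13 and 45 (27.8% and 41.1% of all genes). Entering the replicate number as a block gave 12 and 41 (42.8% and 33.1%).

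**Figure D1:**
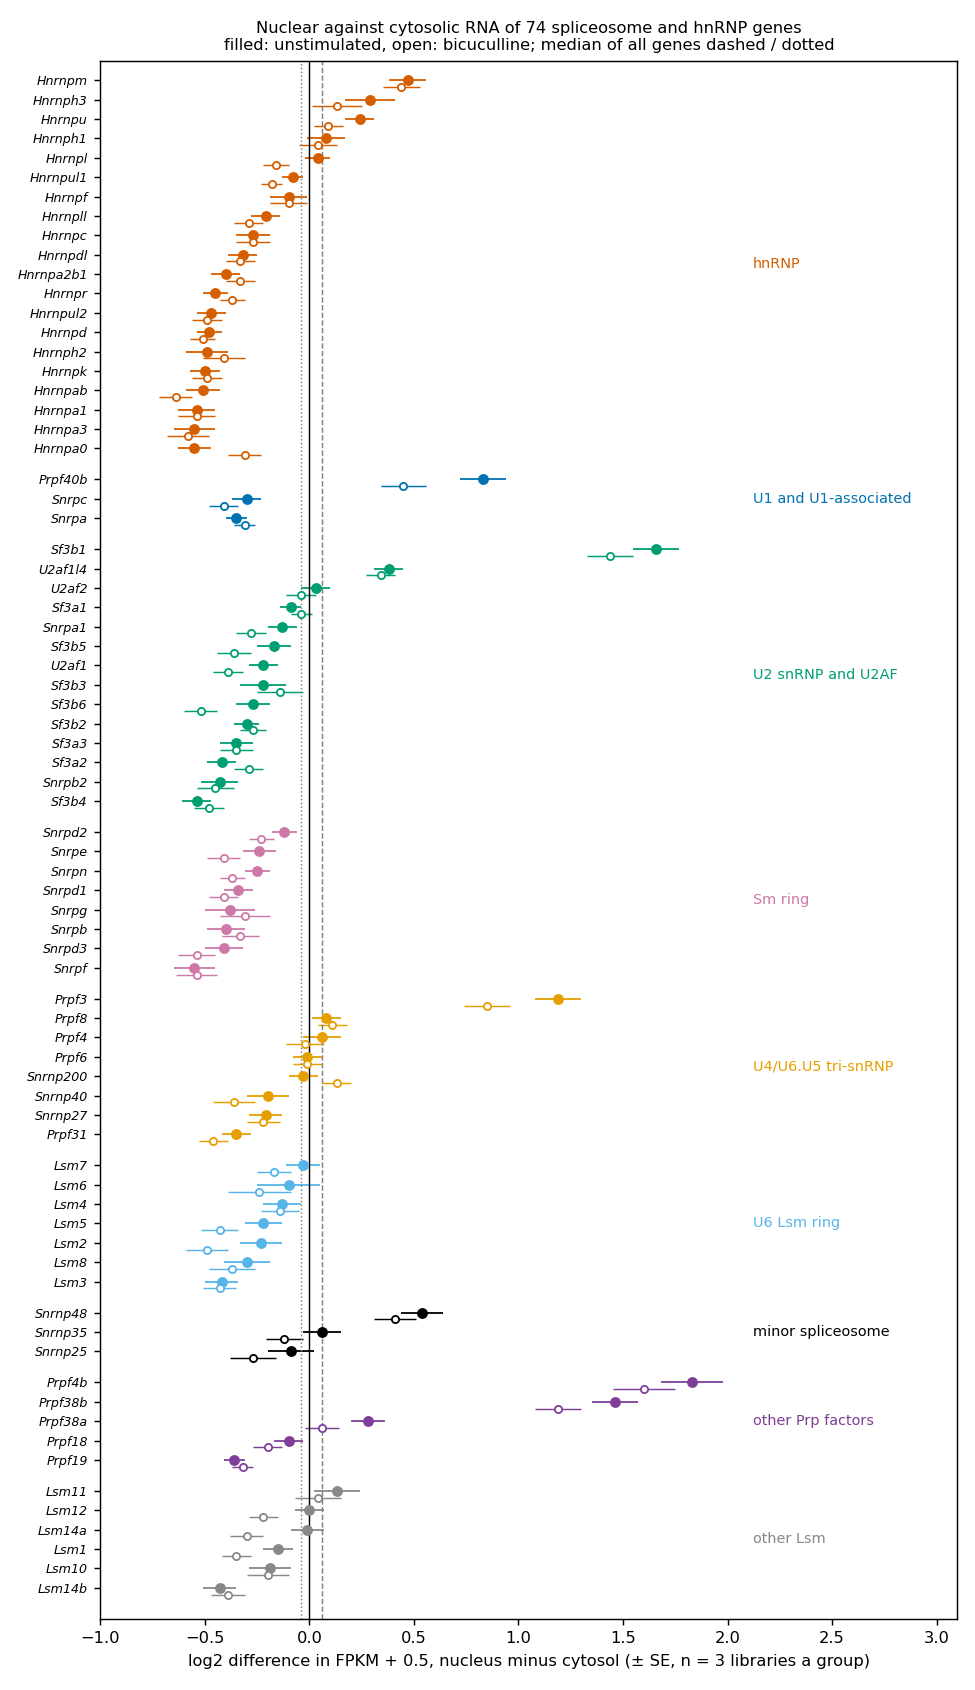
Log2 difference in FPKM + 0.5 between nucleus and cytosol for 74 of the 75 members, grouped by role, with the standard error from limma (3 libraries a group); filled points are unstimulated cells, open points cells given bicuculline, and the dashed and dotted lines the median of all tested genes in each state. Prpf4b, Sf3b1 and Prpf38b lie far to the right in both states, and Prpf3 does so in unstimulated cells and less after bicuculline (0.85). Most hnRNP, Sm and Lsm genes lie left of 0.

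The 4 most nuclear members in unstimulated cells were Prpf4b, Sf3b1, Prpf38b and Prpf3, each more than 2-fold higher in the nucleus. Prpf4b, a protein kinase that associates with the tri-snRNP (chr13:34875494-34906063), held 29.7, 30.5 and 32.6 FPKM in the nuclei, 17, 22.6 and 21.4 in whole cells and 9.11, 8.71 and 7.25 in the cytosol. The 3 fractions did not overlap, and whole cells lay between nuclei and cytosol. The log2 difference between nucleus and cytosol was 1.83 ± 0.15 (SE), a 3.56-fold higher value in the nucleus (adjusted p = 2.44e-08, limma).

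Sf3b1, the U2 subunit that clamps the branch point and is the target of several splicing inhibitors (chr1:54985169-55027482), was by far the most abundant of the 4. Its values were 104, 102 and 115 FPKM in nuclei, 59.7, 69.9 and 72 in whole cells and 35.3, 33.9 and 31.1 in cytosol. Again every nuclear library exceeded every whole-cell library and every whole-cell library every cytosolic one. The log2 difference was 1.66 ± 0.11 (adjusted p = 3.4e-09, limma), or 3.16-fold. Its partners in U2 did not share this. Sf3b4, another SF3B subunit, stood at 8.7, 9.42 and 8.43 FPKM in nuclei and 13.2, 13.6 and 12.5 in cytosol, with every nuclear library below every cytosolic one (log2 -0.54 ± 0.07, adjusted p = 2.59e-06, limma).

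Prpf38b, one of a pair of Prp38-like factors (chr3:108902805-108911729), held 9.46, 8.52 and 9.95 FPKM in nuclei against 3.36, 3.07 and 2.75 in cytosol. Its groups lay far apart, with a log2 difference of 1.46 ± 0.11 (adjusted p = 7.14e-09, limma), whereas its relative Prpf38a reached only 0.28 ± 0.08 (adjusted p = 0.00507, limma) and turned to -0.04 with median-ratio scaling. Prpf3, a U4/U6 protein that stabilises the tri-snRNP (chr3:95830124-95855885), held 6.58, 5.69 and 6.28 FPKM in nuclei and 2.8, 2.59 and 1.96 in cytosol. These groups were also apart, with a log2 difference of 1.19 ± 0.11 (adjusted p = 8.05e-08, limma). None of the other 7 tri-snRNP members was higher in the nucleus. Prpf8, the scaffold of the catalytic centre, lay at 26.1, 26 and 25.6 FPKM in nuclei and 24.1, 26.3 and 23.4 in cytosol, and Snrnp200, the helicase that unwinds U4 from U6, at 28.8, 30.3 and 32 and at 32.9, 31.9 and 28.3. In both genes the fractions overlapped, and the log2 differences of 0.08 ± 0.07 and -0.03 ± 0.07 did not pass the test. Prpf31, a U4 protein, was lower in the nucleus (log2 -0.35 ± 0.07).

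**Figure D2:**
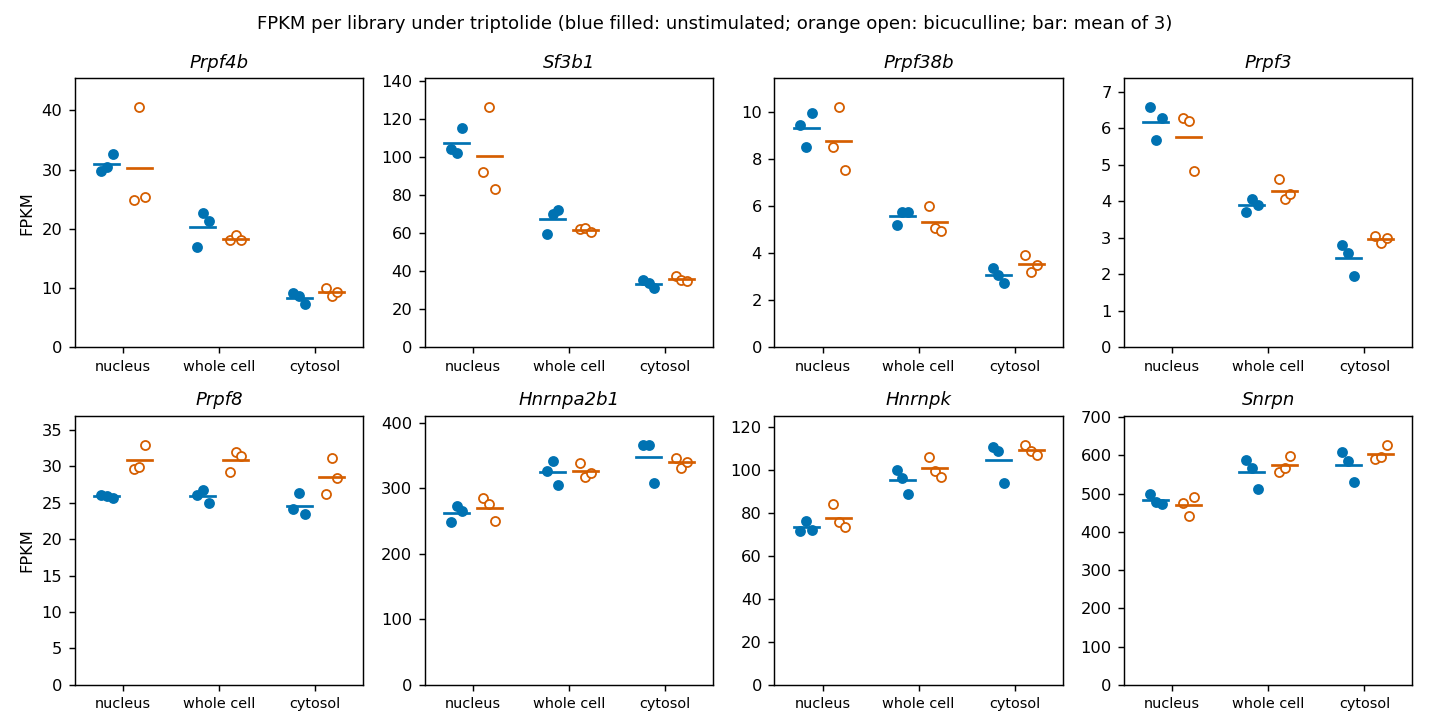
FPKM in each library under triptolide for 8 members, by RNA fraction, with unstimulated cells in filled blue, bicuculline in open orange and the mean of 3 libraries as a bar; each vertical axis starts at 0. Prpf4b, Sf3b1, Prpf38b and Prpf3 step down from nucleus to cytosol, Hnrnpa2b1, Hnrnpk and Snrpn step up, and Prpf8 stays between 23.4 and 33 FPKM throughout.

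The U1 group divided by subunit. Prpf40b, which links U1 to the branch point region, was higher in the nucleus. It had nuclear values of 15.1, 15.7 and 15.3 FPKM and cytosolic ones of 8.23, 8.73 and 8.41 (log2 0.83 ± 0.11, adjusted p = 5.08e-06, limma), and the fractions did not overlap. The U1 proteins Snrpa and Snrpc went the other way. Snrpa stood at 25.2, 25.8 and 25.5 FPKM in nuclei and 33.2, 32.5 and 32.1 in cytosol, again without overlap (log2 -0.35 ± 0.05, adjusted p = 5.68e-06, limma).

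In the U2 group 2 members were higher in the nucleus and 7 of 14 lower. Next to Sf3b1 the higher one was U2af1l4, a relative of the small U2AF subunit (log2 0.38 ± 0.07, adjusted p = 0.000182, limma), which did not pass with median-ratio scaling (0.04, adjusted p = 0.538, limma). U2af1 itself, which contacts the AG at the 3′ splice site, lay slightly lower in the nucleus, at 5.8, 5.27 and 5.36 FPKM against 6.76, 6.62 and 6 (log2 -0.22 ± 0.07, adjusted p = 0.0116, limma). Its groups were apart, but the call was lost without cytosol replicate 1 (adjusted p = 0.0514, limma). U2af2, which binds the polypyrimidine tract, held 64.7, 60.6 and 65.5 FPKM in nuclei and 65.2, 65.4 and 56.5 in cytosol, and these overlapped (log2 0.03 ± 0.07).

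Every called member of the Sm ring and of the U6 Lsm ring was lower in the nucleus, 7 of 8 and 4 of 7. Snrpf, a subunit of the Sm ring, showed the widest gap, with 3.75, 4.97 and 4 FPKM in nuclei and 6.52, 7.01 and 5.73 in cytosol (log2 -0.55 ± 0.10, adjusted p = 0.000154, limma). Snrpb, the generally expressed counterpart of Snrpn, lay at 33.1, 30.9 and 30.1 against 44.1, 42.1 and 38.4 FPKM (log2 -0.40 ± 0.09, adjusted p = 0.000904, limma). In both genes the fractions were apart. Snrpn had the smallest but one difference of the called Sm genes, with 498, 477 and 472 FPKM in nuclei and 609, 585 and 530 in cytosol (log2 -0.25 ± 0.06, adjusted p = 0.00238, limma). Snrpd2, the eighth, did not pass (log2 -0.12 ± 0.06). In the Lsm ring the call of Lsm2 (2.52, 2.71 and 2.48 FPKM in nuclei, 3.11, 3.13 and 3.08 in cytosol) was marginal: the groups did not overlap, yet its adjusted p of 0.0467 (limma) rose to between 0.077 and 0.115 in 5 of the 6 fits that left out 1 library. Outside the ring, Lsm14a, a protein of cytoplasmic processing bodies, did not differ (log2 -0.01 ± 0.08), and its relative Lsm14b was lower in the nucleus (log2 -0.43 ± 0.08, adjusted p = 0.000103, limma).

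Among the 20 hnRNPs, 13 were lower in the nucleus and 3 higher. The lower set held the whole A/B and D families: Hnrnpa0, Hnrnpa1, Hnrnpa2b1, Hnrnpa3, Hnrnpab, Hnrnpd and Hnrnpdl. Hnrnpa2b1 stood at 249, 273 and 265 FPKM in nuclei and 367, 366 and 309 in cytosol, and Hnrnpk, a poly(C)-binding hnRNP, at 71.8, 76.6 and 72 and at 111, 109 and 93.9. Both were without overlap, with log2 differences of -0.40 ± 0.07 (adjusted p = 8.47e-05) and -0.50 ± 0.07 (adjusted p = 8.71e-06, limma). The steepest of the family were Hnrnpa0 (log2 -0.55 ± 0.08), Hnrnpa3 (-0.55 ± 0.10), Hnrnpa1 (-0.54 ± 0.09) and Hnrnpab (-0.51 ± 0.08), and Hnrnpd, an AU-rich element binder, followed at -0.48 ± 0.06 and Hnrnpdl at -0.32 ± 0.07.

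Hnrnpm, Hnrnpu and Hnrnph3 were the hnRNPs with higher nuclear levels. Hnrnpm, which binds GU-rich introns, held 44, 43.1 and 39.3 FPKM in nuclei and 32, 31 and 28.1 in cytosol, with no overlap (log2 0.47 ± 0.09, adjusted p = 2e-04, limma), but with median-ratio scaling it did not pass (0.12, adjusted p = 0.189, limma). Hnrnpu, also known as scaffold attachment factor A, held 156, 155 and 167 against 141, 143 and 122 FPKM, also with no overlap (log2 0.24 ± 0.07, adjusted p = 0.00432, limma), but its value became -0.11 with median-ratio scaling. Hnrnph3 passed narrowly (log2 0.29 ± 0.12, adjusted p = 0.0481, limma), its fractions overlapped, the call was lost in 4 of the 6 fits without 1 library (adjusted p 0.0861 to 0.238) and the value became -0.04 with median-ratio scaling. Hnrnph1 lay at 105, 104 and 96.5 FPKM in nuclei and 103, 101 and 85.9 in cytosol, which overlapped (log2 0.08 ± 0.09), and changed to -0.27 with median-ratio scaling.

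Calls that held in the deposited scale, with median-ratio scaling and with quantile normalization numbered 7 of the 12 nuclear members (among them Prpf4b, Sf3b1, Prpf38b, Prpf3, Prpf40b and Snrnp48, a protein of the U11/U12 snRNP at 0.54 ± 0.10) and 35 of the 37 cytosolic ones, without Hnrnpc and Snrpn. Median-ratio scaling lowers every nuclear value against the cytosolic one, so it could remove nuclear calls but hardly cytosolic ones. The contrast between these counts therefore does not show that the cytosolic calls were sturdier. No matching share of all tested genes is given. The whole-cell mean lay between those of nucleus and cytosol for 58 of the 75 members, and the share of all genes was not counted. Marker genes also differed between the fractions. The summed level of the 6 excitatory neuron markers was 705 to 811 FPKM in unstimulated nuclei and 531 to 576 in cytosol, that of the 3 inhibitory markers 96.1 to 119 and 227 to 292, and that of the 6 astrocyte markers 538 to 630 and 448 to 569. Their part in the members' differences was not tested.

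After bicuculline the division between the fractions was similar in kind. Of the 75 members 9 were higher in the nucleus and 48 lower, against 31.3% and 31.9% of all tested genes, and the median of the members was -0.29 against -0.04. In both states 9 members were nuclear and 37 cytosolic, 3 were higher in the nucleus only in unstimulated cells (Hnrnpu, Hnrnph3 and Prpf38a), 11 were lower only after bicuculline, 15 were called in neither, and 0 switched sides. Matching shares of all tested genes were not counted, so these joint counts are not read as particular to the members. Prpf4b remained the most nuclear, with 24.8, 40.5 and 25.3 FPKM in nuclei and 10, 8.61 and 9.43 in cytosol (log2 1.60 ± 0.15, adjusted p = 2.34e-07, limma). Nuclear replicate 2 was the high library for Prpf4b, and likewise for Sf3b1 (92, 126 and 82.9 FPKM) and Prpf38b (8.53, 10.2 and 7.55), and each nuclear library still exceeded each cytosolic one. Prpf3 was again higher in the nucleus, but at a log2 difference of 0.85 it stayed under 2-fold. Snrnp200 again did not pass (0.13 ± 0.07), and Lsm2 passed at -0.49 ± 0.10. At the other end Hnrnpab reached -0.64 ± 0.08 (adjusted p = 7.86e-06, limma), with 41.2, 36.5 and 36.7 FPKM in nuclei and 60.5, 60 and 58.5 in cytosol.

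The difference between these states was itself tested, as the bicuculline response in the nucleus minus that in the cytosol, and 0 of 75 members passed (79 of 14205 genes, 0.556%, did). Without adjustment 5 members had a p under 0.05, all negative, among them Prpf40b, Prpf3, Lsm14a and Hnrnpl. Of all genes 3.06% were positive and 13.3% negative at that level. With median-ratio scaling the members' counts became 9 positive and 0 negative, where 8.38% and 4.3% of all genes were so. Among the most negative values were those of Prpf40b (-0.38 ± 0.15, 95% interval -0.71 to -0.05), Prpf3 (-0.34 ± 0.15), Lsm14a (-0.30 ± 0.11) and Prpf38b (-0.28 ± 0.15), and the most positive that of Hnrnpa0 (0.24 ± 0.11). Sf3b1 gave -0.22 ± 0.16 and Prpf4b -0.23 ± 0.21. Thus the 3 members called only in unstimulated cells and the 11 called only after bicuculline are not shown to differ between the states. The median over all genes was -0.11 and that of the members -0.07, and with median-ratio scaling they were 0.01 and 0.06. Hnrnpl, which binds CA repeats, passed with the replicate number as a block (log2 -0.20, adjusted p = 0.0366, limma), where 9.76% of all genes passed, and its value with median-ratio scaling was -0.06. With the block and that scaling together Hnrnpl was not called, but Hnrnpa0 (0.37), Snrnp200 (0.30) and Hnrnpr (0.22) were, among 8.22% of all genes. Without bicuculline nuclear replicate 2, Prpf40b passed at -0.54 (adjusted p = 0.0152, limma).

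Under DRB neither stimulus changed any member past the threshold. With bicuculline 0 of 75 members were called, against 41 of 13321 genes (0.308%), all 41 of which rose; 1 member had an unadjusted p under 0.05, as did 1.79% of all genes upwards. That was Lsm12, an Lsm-domain protein not known as part of the spliceosome, at 12.3, 12.9 and 13.1 FPKM in unstimulated and 13.5, 13.9 and 15.6 in stimulated cells. The bicuculline libraries all lay above the unstimulated ones (log2 0.16 ± 0.07, adjusted p = 1, limma). Groups without overlap were seen for 2 members upwards, Lsm12 and Sf3a1, and 0 downwards, where 3.99% and 0.788% of all genes did so. With BDNF 0 members were called against 85 genes (0.638%). None had an unadjusted p under 0.05 (limma), where 3.34% of all genes did upwards and 0.128% downwards. Between BDNF and bicuculline, which share the DRB experiment's spread estimate, 0 members were called against 17 genes (0.128%). Again 0 had an unadjusted p under 0.05, where 2.03% of all genes did upwards and 0.571% downwards. With the replicate number as a block the member counts stayed at 0 in all 3 comparisons, where 0.571%, 1.49% and 0.54% of all genes were called.

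The intervals show what sizes of change these DRB libraries leave possible. For bicuculline the log2 changes ran from -0.10 to 0.16 with a median of 0.01, and the 95% intervals of all 75 members lay within -0.44 (Hnrnpa1) and 0.40 (Lsm10). For BDNF the changes ran from -0.09 to 0.19 and the intervals reached from -0.41 (Lsm5) to 0.47 (Hnrnpa1). Sf3b1 was at 49.3, 57.4 and 52.9 FPKM unstimulated, 50.7, 57.8 and 46.7 with bicuculline and 50.2, 57 and 52.9 with BDNF, and Prpf8 at 49.7, 47.1 and 46.6, then 49.1, 49.8 and 43.8, then 50.2, 48.4 and 50.6. Hnrnpa2b1 held 383, 343 and 393 FPKM, then 368, 325 and 392, then 362, 333 and 361. Among the 16 members followed in every comparison, the log2 change ran from -0.05 (Hnrnpa2b1 and U2af2) to 0.09 (U2af1) with bicuculline, from -0.08 (Hnrnpa2b1) to 0.11 (U2af1) with BDNF and from -0.08 (Snrnp200) to 0.06 (Prpf8) between the stimuli. In Sf3b1, Prpf8 and Hnrnpa2b1 the stimulated libraries overlapped the unstimulated ones, and replicate number 2 stood apart from the other replicates of Hnrnpa2b1 and Sf3b1 in each group.

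**Figure D3:**
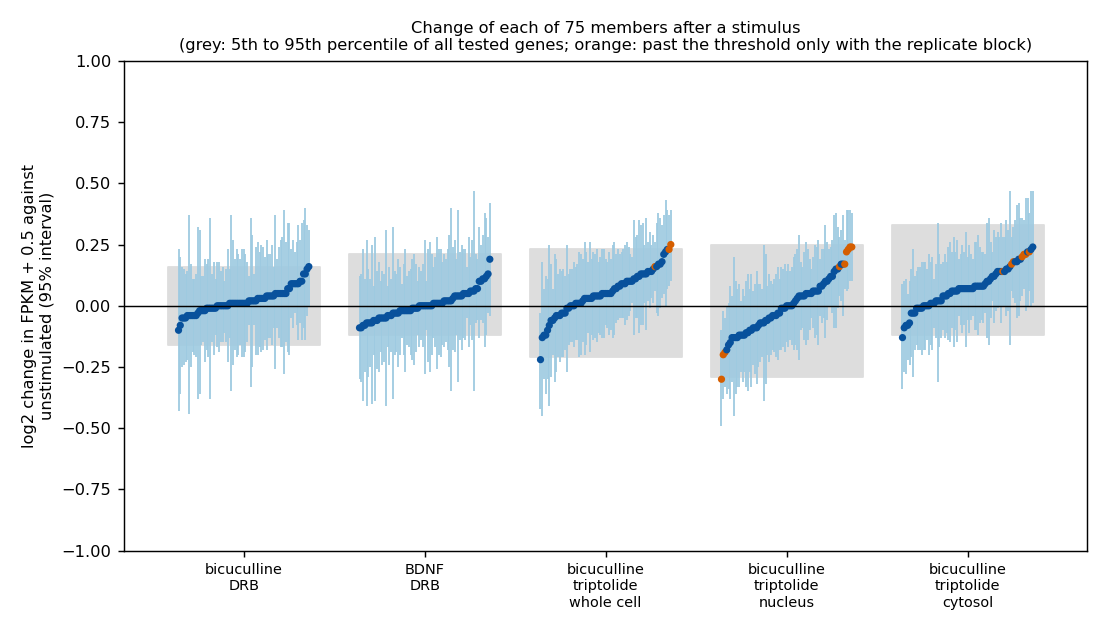
Log2 change of each of the 75 members after a stimulus, sorted within each of 5 comparisons, with the 95% interval from limma; the grey band spans the 5th to 95th percentile of all tested genes, and orange points mark members past the threshold only when the replicate number is a block. All intervals stay within 0.5 of 0 on the log2 scale.

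Under triptolide bicuculline likewise left every member below the threshold in the main test in each fraction. In whole cells 0 members were called against 5 of 14205 genes (0.0352%), and 11 had an unadjusted p under 0.05 upwards and 1 downwards (8.88% and 2.14% of all genes). In nuclei 0 were called against 257 genes (1.81%), with 9 upwards and 4 downwards (Lsm5, Sf3b5, Snrpd2 and Sf3b6) at an unadjusted p under 0.05, where 8.63% and 8.74% of all genes were. In cytosol 0 were called against 465 genes (3.27%), with 14 upwards and 0 downwards at that level (18.5% and 1.01% of all genes), which became 0 and 6 with median-ratio scaling (5.96% and 6.83%). The median changes of the members were 0.05, 0.00 and 0.07, beside 0.03, -0.02 and 0.08 for all tested genes, and the cytosolic pair became -0.05 and -0.01 with median-ratio scaling. Groups were without overlap upwards for 17 members in whole cells, 10 in nuclei and 13 in cytosol, where 12.6%, 9.48% and 22.3% of all genes were so, and downwards for 0, 5 and 0 members, where 4.24%, 8.26% and 2.26% of all genes were so. All 95% intervals lay between -0.49 (Lsm5 in nuclei) and 0.47 (Prpf40b in cytosol).

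Small changes passed once the replicate number entered the fit as a block. Then 3 members were called in whole cells (4.23% of all genes), 9 in nuclei (13.1%) and 7 in cytosol (15.3%). As shares of the 75 these are 4%, 12% and 9.33%, none above the share of all genes. Prpf8 and Sf3b4 were among the called in each fraction. Prpf8 rose from 26.1, 26.7 and 25 to 29.2, 32 and 31.5 FPKM in whole cells, from 26.1, 26 and 25.6 to 29.6, 29.9 and 33 in nuclei, and from 24.1, 26.3 and 23.4 to 26.2, 31.2 and 28.4 in cytosol. The groups were apart in whole cells and nuclei and overlapped in cytosol. The log2 changes were 0.25 ± 0.07, 0.24 ± 0.07 and 0.21 ± 0.07, with adjusted p of 0.159, 0.0764 and 0.0943 without the block and 0.0258, 0.0121 and 0.0217 with it (limma). Under DRB its bicuculline change was -0.01 ± 0.06, and the difference from triptolide was not tested.

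Sf3b4 rose in the same fit by 0.23 in whole cells (12.6, 11.6 and 10.9 FPKM to 14, 14.1 and 13), by 0.24 in nuclei (8.7, 9.42 and 8.43 to 11.1, 10.1 and 10.3) and by 0.18 in cytosol (13.2, 13.6 and 12.5 to 15.5, 14.8 and 14.3). All stimulated libraries exceeded all unstimulated ones in each fraction, and the adjusted p with the block were 0.0243, 0.00757 and 0.0302 (limma). Sf3a1, which with Sf3a2 belongs to the SF3A part of U2, passed with the block in whole cells (0.16) and nuclei (0.17), and Sf3a2 in nuclei (0.23). The other nuclear rises with the block were Hnrnpa0 (0.22) and Hnrnpr (0.16), and the nuclear falls were Lsm5 (-0.30), Sf3b5 (-0.20) and Snrpd2 (-0.19). Lsm5 fell from 3.22, 3.25 and 3.25 FPKM to 2.61, 2.52 and 2.5 in nuclei, with no overlap. In cytosol the other rises included Lsm12 (0.22), Lsm8 (0.21), Hnrnpul1 (0.17) and Hnrnpl (0.14).

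How far these block calls hold depends on the scale. With the block and median-ratio scaling together the calls were 0 in whole cells (2.27% of all genes), 7 in nuclei (12.4%) and 0 in cytosol (6.53%), so only the nuclear set kept members: Sf3b4, Prpf8, Sf3a2, Sf3a1, Hnrnpa0, Hnrnpr and Lsm5. Quantile normalization without the block called 4 in nuclei (4.8% of all genes), Sf3a2, Prpf8, Sf3b4 and Snrpd2. The most abundant members moved little in every fraction. Hnrnpa2b1 changed by 0.01 ± 0.07 in whole cells, 0.05 ± 0.07 in nuclei and -0.03 ± 0.07 in cytosol, Hnrnpk by 0.08, 0.08 and 0.07 with the same error, and Snrpn by 0.05, -0.04 and 0.07 with an error of 0.06, none of which passed. Of the 16 members followed throughout, the lowest were Sf3b1 in whole cells (-0.12 ± 0.11), Lsm2 in nuclei (-0.12 ± 0.10) and Hnrnpa2b1 in cytosol, and Prpf8 was the highest in each fraction. Of the 75 members 29 had a positive estimate in all 3 fractions and 5 a negative one (Snrpd2, Lsm3, Lsm4, Lsm5 and Lsm7), where 31.3% and 10.4% of all genes did. These signs depend on the scale: with median-ratio scaling the counts were 13 and 18 (21% and 21.4% of all genes).

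What the nuclear and cytosolic members share beyond the levels was read from the GENCODE M21 annotation, to which all 75 matched. The 12 nuclear members of unstimulated cells had a median coding length of 2118 bases and 14.5 exons, the 37 cytosolic ones 915 bases and 7 exons, and the 26 in neither set 1078 bases and 9.5 exons, beside 1404 bases and 9 exons for 11017 tested genes. Prpf4b has 15 exons over 30.8 kb, Sf3b1 25 over 42.3 kb, Prpf40b 26 over 21.9 kb, and Prpf38b only 6 over 8.92 kb. Across the 75 members the Spearman correlation of the log2 difference between nucleus and cytosol was 0.30 with coding length, 0.28 with exon number and 0.35 with gene span, beside 0.31, 0.27 and 0.12 across the 11017 genes. With mRNA length it was 0.25 (0.21 across all), with GC content 0.01 (0.03) and with the number of transcripts annotated for nonsense-mediated decay 0.2 (0.11). With the number of annotated retained-intron transcripts it was 0.16, beside 0.14 across the 11017 genes. These are descriptions over genes from the same libraries, and FPKM itself divides by length. A retained-intron transcript is annotated for 10 of the 12 nuclear members (83.3%), for 27 of the 37 cytosolic ones (73.0%), for 16 of the 26 others (61.5%) and for 61.2% of the 11017 genes.

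A further 41 spliceosome genes outside the symbol rule, helicases, tri-snRNP and exon junction factors among them, were all tested in both experiments. In unstimulated cells 9 were higher in the nucleus and 20 lower (39% and 28% of all tested genes), with a median of -0.23. After bicuculline the counts were 6 and 26 (31.3% and 31.9% of all tested genes). The most nuclear of those called were Sart3, which recycles U6 (log2 1.55 ± 0.10, adjusted p = 2.16e-09, limma), Srrm1, a splicing coactivator (1.34 ± 0.09, adjusted p = 4.12e-09), and Ddx39b, the helicase that helps U2 to bind and loads export factors (0.99 ± 0.07, adjusted p = 5.01e-09). With either stimulus under DRB 0 of 41 were called. With bicuculline under triptolide 0 were called in whole cells, 1 in nuclei (Plrg1, of the Prp19 complex) and 1 in cytosol (Sart3), both higher. Of all tested genes 0.0352%, 1.81% and 3.27% were called in these fractions. Sart3 changed by 0.60 ± 0.10 in cytosol (adjusted p = 0.012) and by -0.35 ± 0.10 in nuclei (adjusted p = 0.084), and the difference of these responses passed at -0.95 ± 0.14 (adjusted p = 0.0109, limma), the single call among the 41 genes there. Of all tested genes 0.556% passed for that difference. With the replicate number as a block the bicuculline calls became 2 in whole cells, 6 in nuclei and 7 in cytosol, of which 2 in nuclei were lower. In that fit 4.23%, 13.1% and 15.3% of all tested genes were called.

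Finally, the unstimulated levels of the 2 experiments were set side by side without a test, since inhibitor, its duration and culture all differ between them and cannot be told apart. The labels of the DRB libraries name no RNA fraction. Over the 75 members the median ratio of DRB to triptolide whole cells was 1.42, beside 1.28 over 10919 entries with a symbol and at least 1 FPKM in both, and 65 members were higher under DRB. Only 3 members exceeded 2-fold, Sf3a2, Snrnp40 and Lsm10, at ratios of 2.34, 2.34 and 2.22, and 6.41% of the 10919 entries did. In the other direction 4 members lay beyond 2-fold, where 1.49% of the entries did. Hnrnpa3 was at 1.69, 1.75 and 2.06 FPKM under DRB and 31.7, 31.4 and 26.2 under triptolide, 16.3-fold higher in the latter. Hnrnpa1 was at 5.99, 8.12 and 7.47 against 74, 75.8 and 64 FPKM, 9.9-fold higher, and Lsm7 and Hnrnpf were 3.16-fold and 2.57-fold higher. In none of the 4 did the experiments overlap. Genes of the Hnrnpa1 and Hnrnpa3 families have processed pseudogenes, both entries are merged with a neighbour, and the handling of reads with several matches is not stated in the labels, so these levels are uncertain.

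**Figure D4:**
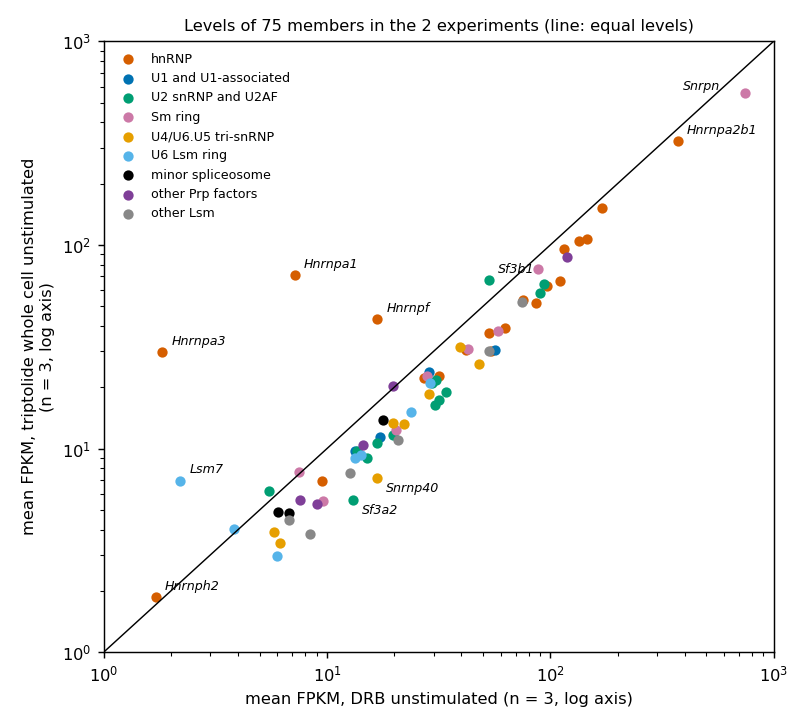
Mean FPKM of each member in unstimulated cells under DRB (horizontal) and in unstimulated whole cells under triptolide (vertical), 3 libraries each, both on log axes, coloured by role, with the line of equal levels. Most members follow the line from Hnrnph2 at the bottom to Snrpn at the top, and Hnrnpa3, Hnrnpa1, Lsm7 and Hnrnpf lie well above it.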

How the data were processed

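The authors deposited 1 table of FPKM per gene and library, on FASTDB gene models. Per the submitters' processing notes the tools were FastQC, Picard, SAMtools and STAR 2.4.0 on mm10. Per the labels' protocols, a stranded mRNA kit was used on column-purified RNA. What counted the reads, with which strand setting and which rule for reads with several matches, is not given in the sources used here. Of the members 24 overlap a gene on the opposite strand and 12 one on the same strand.

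Library depth was estimated from the commonest low value of FPKM times gene span over short entries, taken as single-exon models. It ranged from 67580067 to 147943680 fragments, and whole read counts were not recovered, so no count test was run. Genes with at least 1 FPKM in at least 3 libraries of an experiment were tested, 13321 under DRB and 14205 under triptolide, in 9 comparisons, with limma 3.58.1 (trend and robust) in R 4.3.3 on log2(FPKM + 0.5), all groups of an experiment sharing 1 spread, and Benjamini-Hochberg adjusted p under 0.05 over all tested genes. Fold changes are on the log2(FPKM + 0.5) scale, which understates those of low genes. The procedure without the block was tested on simulated data with independent libraries. Those data lacked the shared deviation of same-numbered libraries, so they cannot speak to the choice of block. Features came from GENCODE M21, and summaries from pandas 2.3.3 and numpy 2.4.6 under Python 3.11.15, with plots by matplotlib 3.10.9.

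Replicate numbers are shared across groups, and library names share a part by number. Deviations from the group means of same-numbered libraries correlated at 0.46 to 0.90 over 9 pairs under DRB and at 0.26 to 0.69 over 45 pairs under triptolide, those of other libraries at -0.62 to 0.15 and -0.45 to -0.07. The numbers were therefore taken as pairing the libraries, and a fit with replicate number as a block stands beside the main one where it changes a call. Whether the cultures came from separate animals is not stated, so p-values measure the spread between these libraries.

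Alternatives were pseudocounts of 0.1 and 1, no filter on low values, median-ratio scaling, quantile normalization, the block, the block with median-ratio scaling, ordinary moderation, only the groups compared in the fit, and leaving out each library. The omission of all DRB libraries of replicate number 2 was added after seeing the data. The members and gene lists were chosen with earlier results of these data known. Named are, in each comparison, up to 10 called members per direction with a mean of at least 5 FPKM, 16 members given whatever their values, and up to 4 called only with the block. Other members named were chosen after their values were seen. The values of 1 member are not reported here, and it stays in the counts.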

Additional observations from a re-analysis of the deposited data

Results flagged for a closer look

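Hnrnpl stood out because its bicuculline response differed between nucleus and cytosol once the replicate number entered the fit as a block, with a log2 difference of -0.20 (adjusted p = 0.0366, limma). By pair its nuclear values went from 65.7, 69.7 and 66.3 to 64.6, 67.3 and 61.7 FPKM and its cytosolic ones from 64.1, 69.6 and 62.7 to 67.8, 77.7 and 71.3, so all 3 pairs gave a negative difference (-0.29 to -0.11). Without the block its adjusted p was 0.286, and relative to the median of all genes the difference was -0.09.

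Hnrnpm stood out because its 3 pairs moved down with bicuculline under DRB (log2 -0.06, -0.05 and -0.01) and up in whole cells under triptolide (0.10, 0.01 and 0.01). Of the members, 4 had all 3 pairs down under DRB and 34 had all 3 up in whole cells under triptolide. The shares of all genes were not counted. For Hnrnpm the mean responses differed by -0.08, DRB minus triptolide, and this difference was not tested.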

How the results depend on the processing

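Over the alternatives, 76 of 84 member counts stayed within 1.5 times the main count, and so did 59 of 60 in fits that left out 1 library. These counts take both directions together, and those that moved did so from 0. By direction, nucleus against cytosol in unstimulated cells went from 12 higher and 37 lower to 7 and 62 with median-ratio scaling. Of all genes 39% and 28% were so in the main fit, and 26.6% and 50.2% with that scaling. In whole cells after bicuculline 3 members were called with the replicate block (4.23% of all genes). In nuclei 4 were called with quantile normalization (4.8%), 9 with the replicate block (13.1%) and 7 with the block and median-ratio scaling together (12.4%). With no filter on low values 1 was called in nuclei, and the share of all genes in that fit is not given. In cytosol 7 were called with the block (15.3%). For the difference of the responses 1 was called with the block (9.76%) and 3 with the block and median-ratio scaling (8.22%). The replicate block changed no count from 0 under DRB.

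Leaving out each library in turn gave 0 to 0 called members for each of the 6 stimulus comparisons, 42 to 50 for nucleus against cytosol unstimulated, 53 to 56 after bicuculline, and 0 to 1 for the difference of the responses. Matching shares of all genes are not given for these fits. Leaving out all DRB libraries of replicate number 2 kept every named result of that experiment on its side of the threshold.

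Signs between nucleus and cytosol depended on scaling for members near 0. In unstimulated cells median-ratio scaling, alone or with the replicate block, gave -0.04 for Hnrnph3, -0.04 for Prpf38a, -0.11 for Hnrnpu, -0.27 for Hnrnph1, -0.32 for U2af2 and -0.27 for Prpf8, and quantile normalization gave 0.00 for Prpf38a. After bicuculline the block with median-ratio scaling gave -0.17 for Hnrnph1 and -0.12 for Hnrnpu. That scaling divides nuclear values by 1.08 to 1.14 and cytosolic ones by 0.854 to 0.967, which by its construction lowers every nuclear value against the cytosolic one.

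With 3 libraries a group, the median half-width of a member's 95% interval was 0.17 to 0.24 on the log2 scale in the fit without the block.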
